A study of Mus musculus with 8 samples.

Results

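The insulin and insulin-like growth factor (IGF) system was described through 10 genes: the receptor genes Insr and Igf1r, the ligand gene Igf1, and the IGF-binding protein genes Igfbp1 to Igfbp7. They were the genes of these names among 46078 gene identifiers in the count data, and the set was selected on their read counts across the 4 conditions, which were known when it was chosen. Their levels and fold changes are therefore given as a description, without p-values, and tests are given for other genes of the pathway.

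RNA sequencing of polyadenylated RNA was available for 8 libraries, 2 biological replicates in each of 4 groups, all from XY C57BL/6 cells. The tcESCs are a male embryonic stem cell (ESC) line that carries tesco-cfp, a CFP transgene driven by the testis-specific core enhancer of Sox9. The tc;Sf1ESCs are 1 clone of that line that also carries a mouse Sf1 (Nr5a1) transgene introduced on a plasmid (XY;tesco-cfp;Sf1), and the SCLCs are cells sorted for CFP on day 12 from a testis-like culture (TesLCs) derived from tc;Sf1ESCs, so SCLCs carry both transgenes. The tod-PGCLCs (todPGCLC in the labels) are primordial germ cell-like cells sorted for GFP on day 6 from testicular organoids, in which XY;Prdm1-gfp cells had been combined with tc;Sf1TesLCs. They come from a different ESC line, so line and cell type cannot be told apart in any comparison with them. As the tc;Sf1ESCs are 1 clone, clone and transgene cannot be told apart against tcESCs. For SCLCs against tcESCs, clone, transgene and differentiation cannot be told apart. According to the methods, the TesLC medium of the tc;Sf1 cells contained CHIR99021, BMP7 and FGF9 without added IGF1, and B27, a supplement that contains insulin, was present in the ESC and TesLC media.

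Insulin and IGFs act through a pair of related receptor tyrosine kinases. INSR binds insulin with high affinity, IGF1R binds IGF1 and IGF2, and both signal through IRS adaptors, PI3K and AKT. The 6 classical binding proteins, IGFBP1 to IGFBP6, hold IGFs outside the cell, lengthen their lifetime and limit or aid their access to the receptor, and proteases such as PAPPA and PAPPA2 cut some of them and set IGFs free. IGFBP7 is a related matrix protein of low affinity for IGFs. In the fetal testis, insulin and IGF receptors are needed together for sex determination and for the growth of Sertoli cells.

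The libraries held 25411033 to 30680191 counts on genes, so that 3 counts equal 0.0978 to 0.118 CPM (counts scaled to the same library total). In the Sf1 design, Nr5a1 had 1 and 0 counts in tcESCs, 52 and 30 in tc;Sf1ESCs, 341 and 535 in SCLCs, and 6 and 5 in tod-PGCLCs. Of 12 Sertoli cell markers, 7 (Sox9, Wt1, Gata4, Nr5a1, Cldn11, Ptgds and Inha) were higher in both SCLC libraries than in every ESC library, and the other 5, among them Fshr with 0 and 0 counts, Amh with 10 and 22 and Dhh with 5 and 1, were not. Their summed level was 18.1 to 27.4 CPM in the ESC libraries and 491 and 482 CPM in SCLCs, of which Gata4 alone made 415 and 431 CPM. Markers of other cells were also higher in SCLCs. All 8 stroma and peritubular cell markers were above every ESC library, with a summed level of 7.95 to 9.14 CPM in ESCs, 1049 and 1016 CPM in SCLCs, and 60.6 and 61.7 CPM in tod-PGCLCs, and Pdgfra made 735 and 872 CPM of it in SCLCs. So were 11 of 12 visceral endoderm and hepatocyte markers. The summed level of the 12 visceral endoderm and hepatocyte markers was 8.70 to 14.6 CPM in the 4 ESC libraries, 1818 and 3301 CPM in the SCLC libraries, and 31.8 and 41.7 CPM in tod-PGCLCs. Of this sum in SCLCs, Cubn alone made 1056 and 2107 CPM. The 8 pluripotent ESC markers summed to 5762 to 6493 CPM in ESCs, 1218 and 1002 CPM in SCLCs, and 4576 and 4395 CPM in tod-PGCLCs. The 9 primordial germ cell markers summed to 523 to 574 CPM in ESCs, 569 and 416 CPM in SCLCs, and 1098 and 1097 CPM in tod-PGCLCs. The SCLC libraries also differed more between themselves than other replicates did, with an SD of the log2 ratio of 0.39 across 16707 genes against 0.18 to 0.28 in the other groups.

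Of the 10 genes, 6 (Insr, Igf1, Igfbp1, Igfbp5, Igfbp6 and Igfbp7) had their highest mean level in SCLCs and the other 4 (Igf1r, Igfbp2, Igfbp3 and Igfbp4) in tod-PGCLCs. No gene was highest in either ESC line. In bulk samples, fewer cells of a type and less RNA per cell cannot be told apart, so a level is that of the whole sorted population. Many markers of Sertoli, stroma and visceral endoderm cells were also higher in SCLCs than in the ESC lines, as given above. The part of any of these cells in the members' levels was not tested. The plot of CPM by library shows every value.

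**Figure D1:**
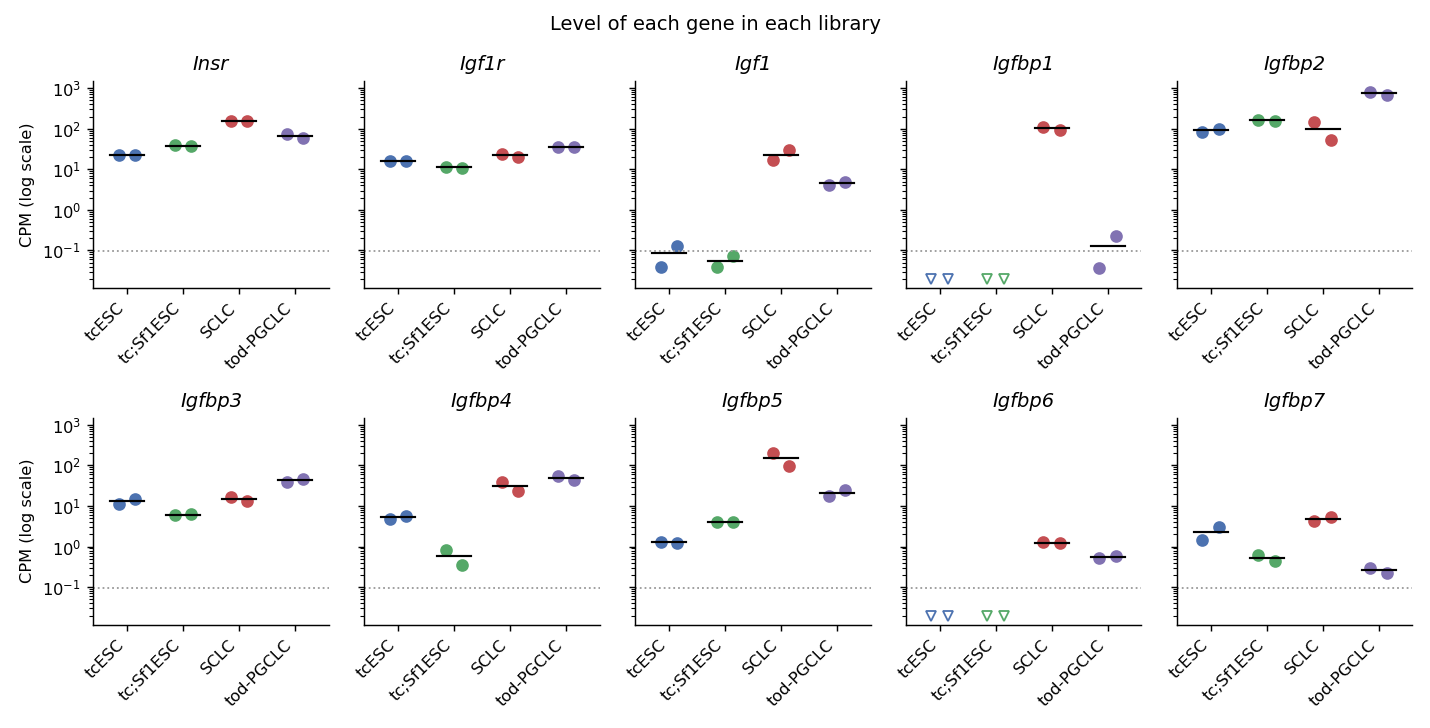
Level of each of the 10 genes in each library, in CPM on a log scale, with 2 libraries a group (points) and their mean (black line). Open triangles at the bottom mark libraries with 0 counts, and the dotted line is the lowest CPM that 3 counts equal (0.0978). Igfbp1 and Igfbp6 had 0 counts in all 4 ESC libraries, while Igfbp2 had at least 54.1 CPM in all 8.

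Insr, the insulin receptor gene, stood at 22.9 and 22.6 CPM in the tcESC libraries, 39.2 and 38.0 CPM in tc;Sf1ESCs, 151 and 155 CPM in SCLCs, and 73.7 and 60.5 CPM in tod-PGCLCs. The 4 groups did not overlap, and SCLCs were highest. On the log2 scale, SCLCs differed from tcESCs by 2.81 (SE 0.067) and from tc;Sf1ESCs by 2.04 (SE 0.065), and tod-PGCLCs differed from tcESCs by 1.49 (SE 0.098). The tc;Sf1ESCs differed from tcESCs by 0.78 (SE 0.066). Insr lies on chromosome 8, whose 864 tested genes had a median log2 difference of 0.58 for SCLCs against tcESCs, 0.47 for tc;Sf1ESCs against tcESCs and 0.039 for SCLCs against tc;Sf1ESCs. After subtraction of the chromosome median, the Insr difference was 2.24, 0.30 and 1.999 in these comparisons. SCLCs differed from tod-PGCLCs by 1.32 (SE 0.094), beside a chromosome 8 median of 0.54, and by 0.78 after its subtraction. The part of the chromosome shift in the Insr level was not tested.

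Igf1r, the IGF1 receptor gene, varied least of the 10 genes. It had 16.3 and 16.1 CPM in tcESCs, 11.1 and 11.1 CPM in tc;Sf1ESCs, 24.1 and 20.04 CPM in SCLCs, and 35.4 and 35.4 CPM in tod-PGCLCs. The groups again did not overlap, but the order differed from that of Insr, with tod-PGCLCs first and tc;Sf1ESCs last. The log2 difference was 0.51 (SE 0.12) between SCLCs and tcESCs, 1.04 (SE 0.12) between SCLCs and tc;Sf1ESCs, and 1.06 (SE 0.11) between tod-PGCLCs and tcESCs.

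The balance of the receptor transcripts therefore differed by group. Per kb of exon, the ratio of Insr to Igf1r was 1.72 and 1.71 in tcESCs, 4.29 and 4.20 in tc;Sf1ESCs, 7.67 and 9.46 in SCLCs, and 2.54 and 2.09 in tod-PGCLCs. Insr was the more abundant transcript in all 8 libraries. The ratios of the groups did not overlap, and with the length of the longest transcript in place of the union of exons they were nearly the same, 7.65 and 9.45 in SCLCs. The part of the chromosome shift given above for Insr in these ratios was not tested.

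Igf1, the gene of the circulating and local growth factor IGF1, was close to silent in ESCs, with 1 and 4 counts in tcESCs and 1 and 2 in tc;Sf1ESCs. It had 441 and 862 counts (16.6 and 29.6 CPM) in SCLCs and 112 and 130 counts (4.07 and 4.89 CPM) in tod-PGCLCs. Both derived cell populations were thus far above the ESC lines, and the ESC lines overlapped. With all counts of a group pooled, the level in SCLCs was 263 times that in tcESCs (95% counting interval 112 to 811) and 419 times that in tc;Sf1ESCs (143 to 2033). In tod-PGCLCs it was 50.2 times that in tcESCs (21.2 to 156). The sizes rest on which tcESC library is used, since the fitted log2 difference from tcESCs went from 7.48 without replicate 1 to 9.09 without replicate 2 in SCLCs and from 4.94 to 6.55 in tod-PGCLCs. SCLCs differed from tod-PGCLCs by 2.50 (SE 0.29) on the log2 scale. These intervals cover counting error only.

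The binding protein genes are described next, beginning with Igfbp1. IGFBP1 is a small secreted protein made mainly by the liver and the decidua, and its gene is repressed by insulin. In tcESCs and tc;Sf1ESCs, Igfbp1 had 0 counts in all 4 libraries. It had 2993 and 2646 counts in SCLCs (113 and 91.0 CPM) but 1 and 6 counts in tod-PGCLCs. Against the level that 3 counts per library equal, SCLCs were at least 910-fold higher than tc;Sf1ESCs. With counts pooled, they had 784 times the tod-PGCLC level (95% counting interval 380 to 1951), which covers counting error only. The fitted log2 difference was 8.91 without tod-PGCLC replicate 1 and 11.40 without tod-PGCLC replicate 2, so the size rests on which of these libraries is used. SCLCs were thus the only one of the 4 populations with Igfbp1 well above 3 counts in a library. Beside it, 11 of the 12 visceral endoderm and hepatocyte markers had more than 3 counts in both SCLC libraries, as 11 had in both tod-PGCLC libraries and 6 to 8 in the ESC libraries, at the lower summed levels given above. Those in SCLCs included Ttr with 1240 and 3411 and Afp with 604 and 1400, while Alb, the hepatocyte marker, had 1 and 1. Igfbp1 itself was 1.24-fold higher in replicate 1, the library with the lower summed level of those markers, and their part in the Igfbp1 level was not tested.

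Igfbp1 and Igfbp3 are neighbours on chromosome 11 and point at each other, Igfbp1 on the plus strand and Igfbp3 on the minus strand, with 3539 bases and no annotated gene between their ends. They differ in the ESC lines, where Igfbp1 had no counts and Igfbp3 had 156 to 447, and their promoters are shown for that contrast. The sequences are from RefSeq (build GRCm38.p6), cover 250 bases before to 50 bases after the annotated start, run 5′ to 3′ on the strand of the gene, and have each CpG dinucleotide in capitals. The promoters of Igf1 and Igfbp6, the other genes with at most 4 counts in every ESC library, follow. Their positions are chr11:7197537-7197836 (plus) for Igfbp1, chr11:7213874-7214173 (minus) for Igfbp3, chr10:87860861-87861160 (plus) for Igf1 and chr15:102143936-102144235 (plus) for Igfbp6.
Igfbp1: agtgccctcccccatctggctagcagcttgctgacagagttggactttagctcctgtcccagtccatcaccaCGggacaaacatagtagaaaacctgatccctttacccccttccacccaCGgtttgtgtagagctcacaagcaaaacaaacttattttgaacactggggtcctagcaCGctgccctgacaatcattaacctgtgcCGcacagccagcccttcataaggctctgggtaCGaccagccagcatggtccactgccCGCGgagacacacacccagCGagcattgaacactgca
Igfbp3: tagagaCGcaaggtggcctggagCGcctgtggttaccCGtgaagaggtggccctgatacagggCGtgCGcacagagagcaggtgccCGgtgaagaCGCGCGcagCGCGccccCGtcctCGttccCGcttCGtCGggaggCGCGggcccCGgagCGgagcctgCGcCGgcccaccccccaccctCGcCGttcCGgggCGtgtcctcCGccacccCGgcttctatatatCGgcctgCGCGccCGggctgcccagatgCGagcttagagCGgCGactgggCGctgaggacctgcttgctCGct
Igf1: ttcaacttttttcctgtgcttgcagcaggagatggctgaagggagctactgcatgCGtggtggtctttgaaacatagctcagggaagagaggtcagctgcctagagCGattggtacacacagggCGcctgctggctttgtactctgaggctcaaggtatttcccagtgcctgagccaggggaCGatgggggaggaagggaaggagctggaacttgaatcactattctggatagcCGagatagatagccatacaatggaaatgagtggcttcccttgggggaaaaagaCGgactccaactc
Igfbp6: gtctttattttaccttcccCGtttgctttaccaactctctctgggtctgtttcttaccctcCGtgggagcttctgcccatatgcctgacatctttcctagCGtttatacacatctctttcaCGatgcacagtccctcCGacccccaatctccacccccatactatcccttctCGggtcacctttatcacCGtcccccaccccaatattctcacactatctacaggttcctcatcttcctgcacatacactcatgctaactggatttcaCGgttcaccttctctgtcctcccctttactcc

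Igfbp1 had 8 CpG in its 300 bases, Igf1 6 and Igfbp6 8, against 37 in Igfbp3. The RefSeq starts of Igf1 and Igfbp6 lie 2846 and 176 bases from the GENCODE gene starts, so other start sites exist that these windows do not cover. A promoter was found for 9 of the 10 genes. The remaining ones had 10 CpG (Igfbp5), 18 and 14 (the 2 starts of Igfbp2), 27 (Igfbp4), 33 (Igfbp7) and 48 (Igf1r). The 3 genes near 0 in ESCs were thus those with the fewest CpG, a comparison chosen after the values were seen and not tested. Across the genome, 32851 promoters had a median of 7 CpG. The genes that passed the count filter and had a promoter of the same name were also compared, with the first promoter listed for each. The 236 with at most 3 counts in every ESC library had a median of 5 and the other 11519 a median of 20. The 236 passed the filter only through SCLCs or tod-PGCLCs, so they do not stand for all genes silent in ESCs. Igf1, with up to 4 counts in an ESC library, is not among them.

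The Igfbp1 promoter also held the letters CAAAACA, the core of the insulin response element described for this gene, 108 bases before the start. They are in capitals in this stretch of the plus strand.
Igfbp1 stretch: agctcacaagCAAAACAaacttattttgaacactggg
The same 7 letters, on either strand, occurred in 6.28% of all promoters and in no other of these genes. The forkhead core TGTTTAC was in none of them (3.65% of all promoters), and AAGGTCA, a site of the kind that NR5A1 binds, was in the Igf1r promoter only, on the minus strand (4.72% of all promoters). A match of letters is a description of the sequence and not evidence of a bound site.

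Igfbp2, whose product is an abundant binding protein of fetal tissues, had 82.7 and 98.7 CPM in tcESCs, 169 and 158 CPM in tc;Sf1ESCs, 146 and 54.1 CPM in SCLCs, and 810 and 696 CPM in tod-PGCLCs. Tod-PGCLCs were highest, and the SCLC libraries lay on both sides of tcESCs. The log2 difference of tod-PGCLCs was 2.98 (SE 0.37) from tcESCs and that of SCLCs was -2.78 (SE 0.37) from tod-PGCLCs, or -3.66 without SCLC replicate 1. Between SCLCs and tcESCs it was 0.20 (SE 0.38), and it went from -0.67 without SCLC replicate 1 to 0.74 without SCLC replicate 2, so that 1 library set its sign.

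Igfbp3 encodes the main carrier of IGFs in adult serum. It had 11.5 and 14.6 CPM in tcESCs, 6.02 and 6.29 CPM in tc;Sf1ESCs, 17.0 and 13.0 CPM in SCLCs, and 39.2 and 46.8 CPM in tod-PGCLCs. Only SCLCs and tcESCs overlapped. The log2 difference was 1.65 (SE 0.17) between tod-PGCLCs and tcESCs, -1.39 (SE 0.17) between SCLCs and tod-PGCLCs, and -1.07 (SE 0.19) between tc;Sf1ESCs and tcESCs.

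Igfbp4, whose product is a substrate of PAPPA, had 4.92 and 5.80 CPM in tcESCs but only 21 and 10 counts (0.810 and 0.361 CPM) in tc;Sf1ESCs. It had 38.6 and 23.8 CPM in SCLCs and 54.5 and 44.7 CPM in tod-PGCLCs. The groups did not overlap. The log2 difference between the ESC lines was -3.19 (SE 0.41), the most negative of the 10 genes there, and SCLCs differed from their parent tc;Sf1ESCs by 5.79 (SE 0.38) but from tcESCs by 2.60 (SE 0.29). Without tc;Sf1ESC replicate 1 the first value was -3.85 and the second 6.42. SCLCs and tod-PGCLCs differed by -0.54 (SE 0.23), and the 3 genes on chromosome 11, Igfbp1, Igfbp3 and Igfbp4, stood beside a median log2 difference of -0.53 over all tested genes of that chromosome. Relative to it, Igfbp4 differed by -0.0092 and Igfbp3 by -0.86. Between tod-PGCLCs and tcESCs the chromosome median was 0.52, with Igfbp4 2.62 and Igfbp3 1.13 above it.

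Igfbp5, which encodes the most conserved of the binding proteins, found in muscle and bone matrix, had 1.30 and 1.24 CPM in tcESCs, 4.13 and 3.94 CPM in tc;Sf1ESCs, 202 and 98.5 CPM in SCLCs, and 17.5 and 24.5 CPM in tod-PGCLCs. All 4 groups were apart, in the order SCLCs, tod-PGCLCs, tc;Sf1ESCs and tcESCs. SCLCs differed from tcESCs by 6.95 (SE 0.42) on the log2 scale, or by 6.36 without SCLC replicate 1, the lowest of the values with each library left out in turn. They differed from tc;Sf1ESCs by 5.27 (SE 0.37) and from tod-PGCLCs by 2.97 (SE 0.30), or by 4.68 and 2.37 without SCLC replicate 1. The ESC lines differed by 1.68 (SE 0.51). Igfbp5 and Igfbp2 are also neighbours, 5457 bases apart on chromosome 1 with no annotated gene between them and pointing at each other, and they had different orders of the 4 groups.

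Igfbp6 encodes the binding protein that prefers IGF2. It had 0 counts in all 4 ESC libraries, 34 and 36 counts in SCLCs, and 14 and 16 counts in tod-PGCLCs. These are low counts, 1.28 and 1.24 CPM in SCLCs, yet the groups with counts were apart. SCLCs were at least 11.7-fold higher than tcESCs and tod-PGCLCs at least 5.15-fold higher, and SCLCs differed from tod-PGCLCs by 1.31 (SE 0.34) on the log2 scale.

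Igfbp7 had 37 and 92 counts in tcESCs, 16 and 12 in tc;Sf1ESCs, 115 and 158 in SCLCs, and 8 and 6 in tod-PGCLCs. It was the only one of the 10 genes with its lowest level in tod-PGCLCs, at 0.258 ± 0.046 CPM (SD, n = 2) against 4.89 ± 0.77 CPM in SCLCs, a log2 difference of 4.35 (SE 0.44). Tod-PGCLCs differed from tcESCs by -3.17 (SE 0.46), tc;Sf1ESCs differed from tcESCs by -2.08 (SE 0.43), and SCLCs differed from tcESCs by 1.18 (SE 0.34). The last value was 0.77 without tcESC replicate 1 and 1.79 without tcESC replicate 2, and that between the ESC lines was -1.46 without tcESC replicate 2. Of the 1209 exonic bases of Igfbp7, 85 are shared with exons of Polr2b on the opposite strand. Polr2b had 3301 to 7416 counts, and whether the counting used the strand is not given in the sources used here, so reads in the shared bases cannot be assigned with certainty.

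The makeup of the binding protein transcripts set SCLCs apart from the other 3 groups. With the 7 genes summed as CPM per kb of exon, Igfbp2 made up 87.8 and 86.1% of the sum in tcESCs, 96.5 and 96.5% in tc;Sf1ESCs, and 93.9 and 92.6% in tod-PGCLCs, but 38.5 and 24.3% in SCLCs. In the SCLC libraries, Igfbp1 made up 36.0 and 49.5% and Igfbp5 16.3 and 13.6%. Thus 3 binding protein genes passed 10% of the sum in SCLCs and 1 gene, Igfbp2, in each other group. The sum itself was 51.0 and 62.1 CPM per kb in tcESCs, 94.8 and 88.8 in tc;Sf1ESCs, 206 and 120 in SCLCs, and 467 and 407 in tod-PGCLCs.

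**Figure D2:**
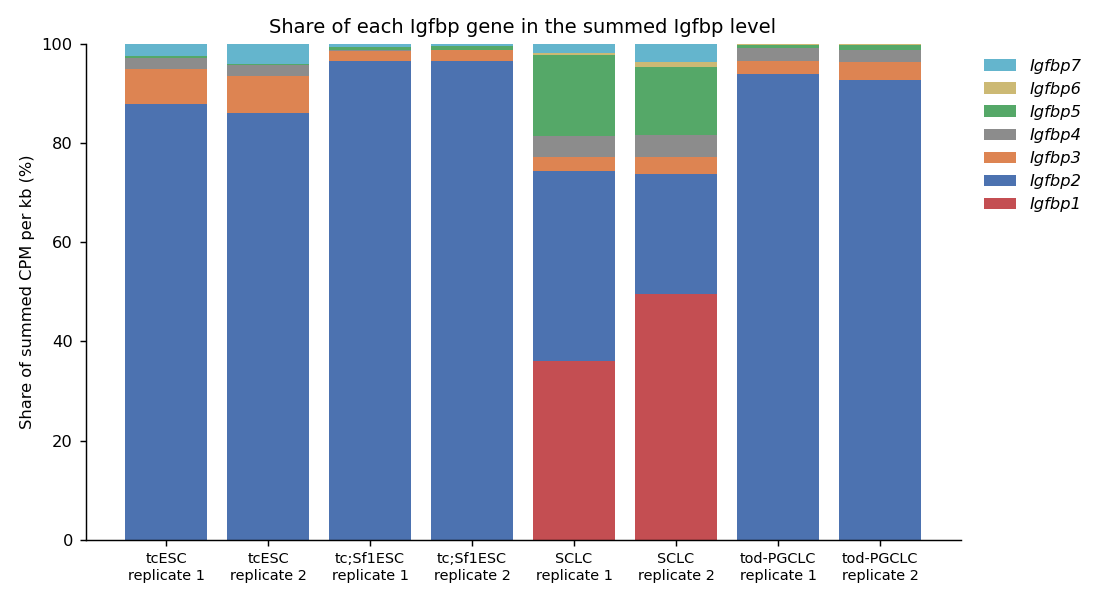
Share of each of the 7 Igfbp genes in their summed level (CPM per kb of exon, in percent), 1 bar per library. Igfbp2 took 86.1 to 96.5% in the ESC and tod-PGCLC libraries and 38.5 and 24.3% in the SCLC libraries, where Igfbp1 took 36.0 and 49.5%.

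Per kb of exon, the order of the 10 genes was led by Igfbp2 in tcESCs (49.1 ± 6.1 CPM per kb, SD, n = 2), tc;Sf1ESCs (88.6 ± 4.1) and tod-PGCLCs (408 ± 44). The next gene was Igfbp3 in tcESCs (4.16 ± 0.70) and in tod-PGCLCs (13.7 ± 1.7), and Insr in tc;Sf1ESCs (2.81 ± 0.059). In SCLCs the order began with Igfbp1 (66.8 ± 10.2), Igfbp2 (54.2 ± 35.2), Igfbp5 (24.98 ± 12.1) and Insr (11.1 ± 0.21). Igfbp1 and Igfbp2 overlapped between libraries there, as did Igfbp2 and Igfbp5, Igfbp4 and Igfbp3, and Igfbp3 and Igfbp7. With the length of the longest transcript, Igfbp2 came before Igfbp1 in SCLCs. In the other groups, the only overlapping neighbours in the order with counts were Igfbp7 and Insr in tcESCs, Igfbp5 and Igf1r in tc;Sf1ESCs, and Igfbp6 and Igf1 in tod-PGCLCs.

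Across comparisons, the members were counted when the groups differed more than 2-fold and their libraries did not overlap, with a group at 0 set to the level of 3 counts per library. The rule that chose the genes used these contrasts, so nothing is read from the counts. Between SCLCs and tcESCs, 7 of the 10 were higher and 0 lower, where 24.6% of all 16481 tested genes were higher and 18.9% lower. Between SCLCs and tc;Sf1ESCs, 9 were higher and 0 lower (24.4% and 18.7% of all genes). Between tc;Sf1ESCs and tcESCs, 1 was higher (Igfbp5) and 3 lower (Igfbp3, Igfbp4 and Igfbp7), with 7.29% and 7.55% of all genes. Between tod-PGCLCs and tcESCs, 8 were higher and 1 lower, Igfbp7 (19.2% and 11.8% of 16707 genes). Igfbp1 was not counted, as its 1 and 6 counts were less than 2-fold above that level. The shares of all genes use fitted fold changes, also for genes at 0 in a group. Between SCLCs and tod-PGCLCs, 6 were higher and 2 lower, Igfbp2 and Igfbp3 (19.8% and 19.2%). Some genes lay near the 2-fold limit. Igf1r between SCLCs and tc;Sf1ESCs was at a log2 difference of 1.04, and at 0.92 without SCLC replicate 1. Igfbp3 between the ESC lines was at -0.89 without tcESC replicate 2. Igfbp7 between SCLCs and tcESCs was under 2-fold without tcESC replicate 1 (0.77) and without SCLC replicate 2. Igfbp2, not counted between SCLCs and tc;Sf1ESCs (-0.66), was at -1.53 there without SCLC replicate 1. All 10 genes passed the filter of a mean count above 10, but Igf1, Igfbp1 and Igfbp6 passed it only through the groups where they are high. The SCLC and tod-PGCLC comparisons with tcESCs share the tcESC libraries.

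**Figure D3:**
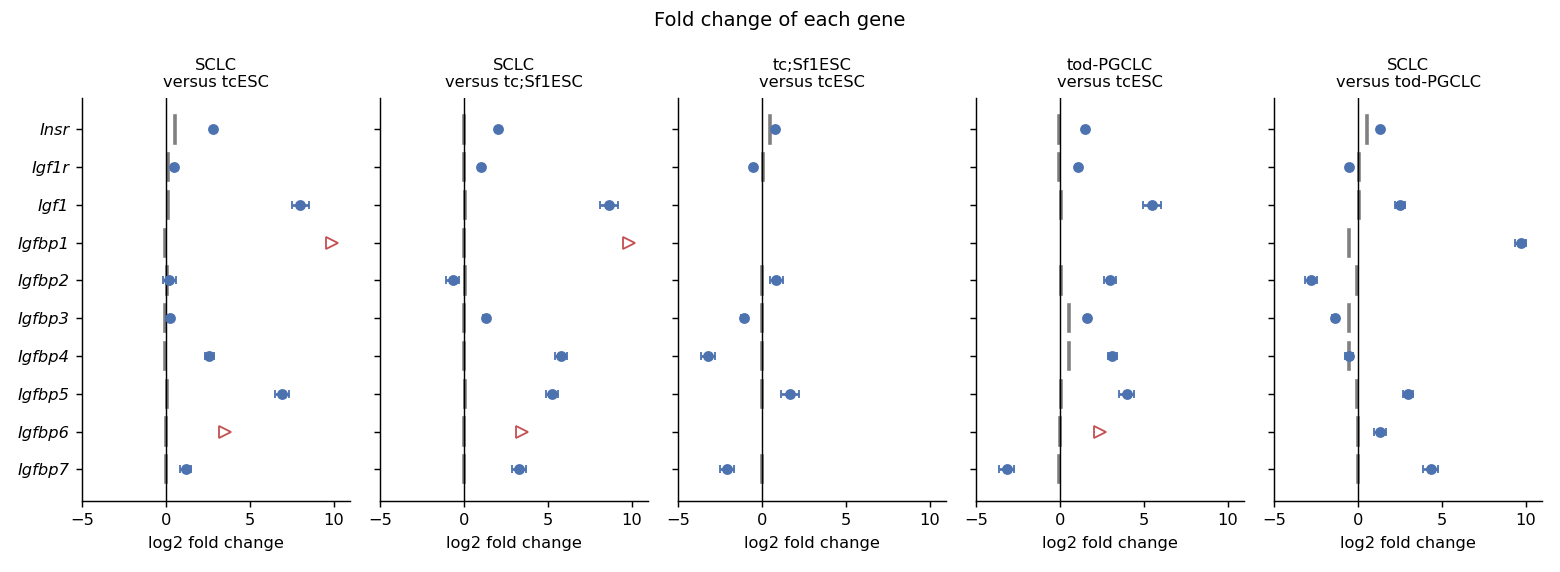
Log2 fold change of each gene in 5 comparisons (points, with the SE of edgeR's fit as bars) and the median log2 fold change of all tested genes on its chromosome (grey ticks). Open triangles are lower bounds against 3 counts per library where the second group had 0 counts, and genes with both groups under 0.2 CPM are left out. Igfbp7 is lower in tod-PGCLCs than in tcESCs (-3.17) while the other genes drawn there are higher.

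The SCLC libraries differed from each other in several of these genes. Replicate 1 was higher for Igfbp2 (2.70-fold), Igfbp5 (2.05-fold), Igfbp4 (1.63-fold), Igfbp3 (1.31-fold), Igfbp1 (1.24-fold) and Igf1r (1.201-fold), and replicate 2 was higher for Igf1 (1.78-fold) and Igfbp7 (1.25-fold). Insr and Igfbp6 differed by less than 1.04-fold. Of marker genes with more than 3 counts, 9 of 11 on the visceral endoderm and hepatocyte list were higher in replicate 2 (median 1.86-fold). On the other hand, 7 of 8 stroma and peritubular cell markers (median 1.58-fold), 8 of 9 primordial germ cell markers (median 1.86-fold) and 6 of 8 pluripotent ESC markers (median 1.43-fold) were higher in replicate 1. The Sertoli cell markers were mixed, with 6 of 11 higher in replicate 1 and 5 in replicate 2 (median 1.74-fold higher in replicate 1). Igf1 therefore moved between the libraries in the same direction as most visceral endoderm markers, and Igfbp2, Igfbp5 and Igfbp4 in the same direction as most stroma, germ cell and ESC markers. With 1 library on each side no test was possible, and the part of these cells in the levels was not tested.

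**Figure D4:**
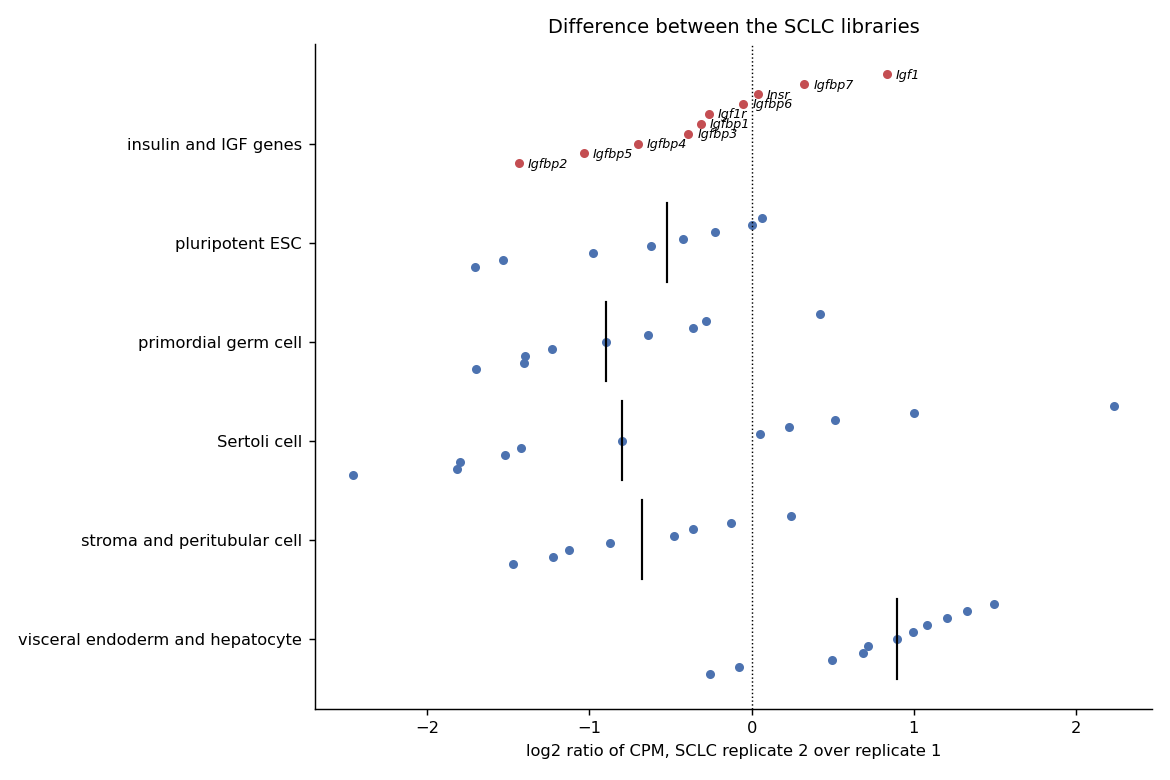
Log2 ratio of CPM in SCLC replicate 2 over replicate 1 for the 10 genes (red, named) and for marker genes of 5 cell types with more than 3 counts (blue, with the list's median as a black line). Igf1 lies to the right with most visceral endoderm and hepatocyte markers, and Igfbp2 and Igfbp5 lie to the left.

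For other genes of the pathway, edgeR's quasi-likelihood test was run, and a gene was called where its change exceeded 2-fold at a Benjamini-Hochberg adjusted p under 0.05. Of the 63 genes in 8 lists of ligands, receptors, partners and signalling proteins, 54 were tested in the 6 libraries of ESCs and SCLCs, and 15 rose and 5 fell in SCLCs against tcESCs, where 42.7% of all tested genes were called (24.3% higher and 18.3% lower). Against tc;Sf1ESCs, 15 rose and 7 fell (42.2% of all genes called, 24.1% higher and 18.1% lower). In tc;Sf1ESCs against tcESCs, 2 rose, Irs1 and Kazald1, and 5 fell, Igf2, Htra1, Pik3r3, Grb14 and Irs4 (11.7% of all genes, 6.04% higher and 5.63% lower). Of these 7, Igf2, Htra1 and Pik3r3 were called with any of the 4 libraries left out, and Irs1, Kazald1, Grb14 and Irs4 were lost each time. In tod-PGCLCs against tcESCs, 18 of 55 rose and 5 fell (29.4%, 18.1% higher and 11.2% lower). Between SCLCs and tod-PGCLCs, 11 were higher in SCLCs and 8 lower (38%, 19.5% higher and 18.5% lower). The median log2 fold change of the lists together was 0.21, 0.20, -0.0033, 0.17 and -0.061 in these comparisons, beside 0.046, 0.016, 0.00077, 0.034 and -0.012 for all tested genes.

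**Figure D5:**
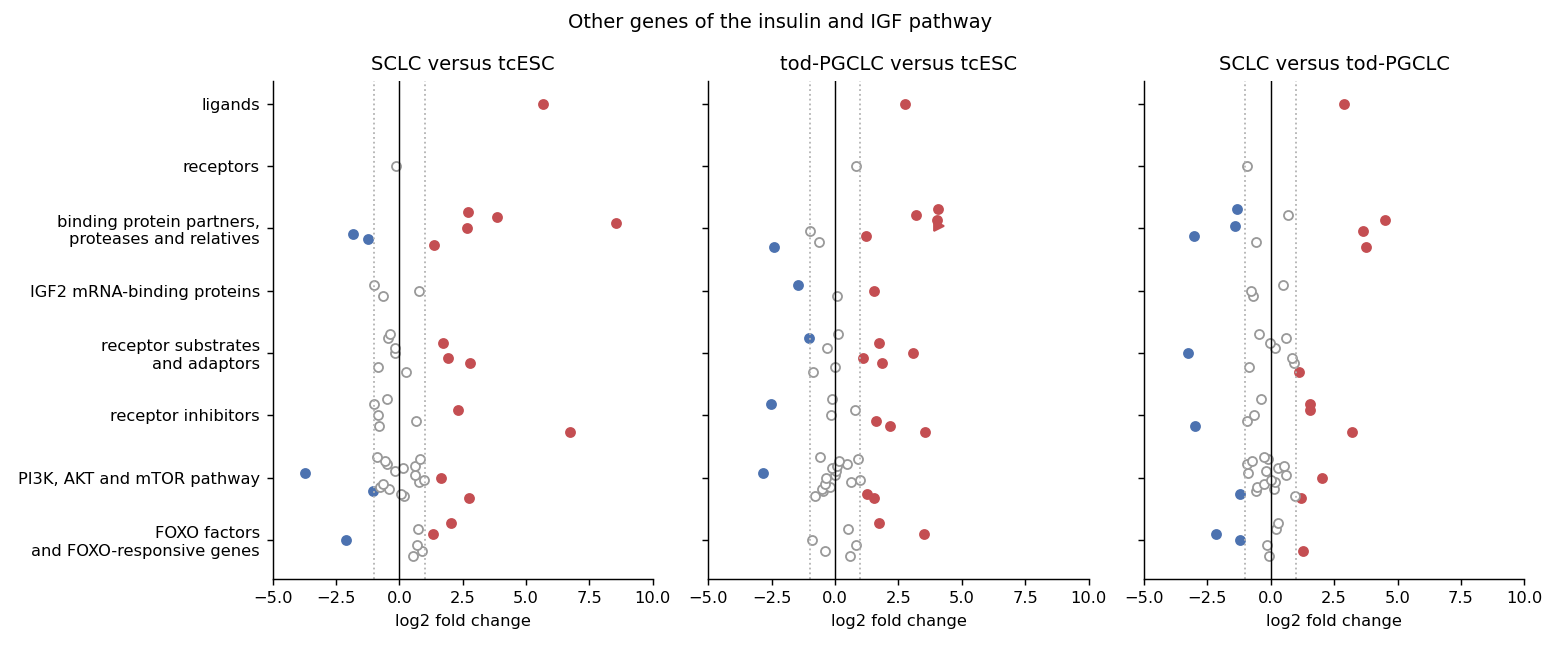
Log2 fold change of the tested pathway genes by list in 3 comparisons. Filled red points were called higher and filled blue points lower by edgeR's quasi-likelihood test, open grey points were not called, dotted lines mark a 2-fold change, and the red triangle (Pappa) is a lower bound against 3 counts per library. In SCLCs against tcESCs, 7 of 7 tested genes of the binding protein partners list and 4 of 19 of the PI3K, AKT and mTOR list were called, beside 42.7% of all tested genes, and the difference between the lists was not tested.

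Igf2, the imprinted fetal growth factor gene, was the only tested gene of the 3 further ligand genes. It had 332 and 455 counts in tcESCs, 40 and 36 in tc;Sf1ESCs, 14215 and 23498 in SCLCs, and 2630 and 2796 in tod-PGCLCs. It rose by a log2 fold change of 5.65 (SE 0.22) in SCLCs against tcESCs (edgeR's quasi-likelihood test, adjusted p = 1.04e-06) and by 2.77 (SE 0.19) in tod-PGCLCs (edgeR, adjusted p = 5.53e-06), and fell by 3.28 (SE 0.29) in tc;Sf1ESCs against tcESCs (edgeR, adjusted p = 0.000409). Thus Igf2, like Igf1, Insr and Igfbp5, was highest in SCLCs. Ins1 had 0 counts in every library, and Ins2 had 0 counts in ESCs, 1 and 1 in SCLCs, and 14 and 26 in tod-PGCLCs. Igf2r, the receptor that clears IGF2, was called in none of the 5 comparisons. It had 186 and 173 CPM in tcESCs, 178 and 139 CPM in SCLCs, and 357 and 311 CPM in tod-PGCLCs, and its change of 0.82 (SE 0.12) in tod-PGCLCs against tcESCs stayed under 2-fold (edgeR, adjusted p = 0.000314).

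All 7 tested genes that encode partners, proteases and relatives of the binding proteins were called in SCLCs against both ESC lines, in the same directions, where 42.7% and 42.2% of all genes were called. Pappa2, Stc1, Stc2, Htra1 and Kazald1 rose, and Igfals and Igfbpl1 fell. Against tcESCs the call of Igfals was lost without tcESC replicate 1, tcESC replicate 2 or SCLC replicate 2 (log2 fold changes -1.29, -1.17 and -0.74), that of Igfbpl1 was lost without tcESC replicate 1 (-1.43; edgeR, adjusted p = 0.0569), and Stc1 fell below the count filter with either SCLC library left out. The list's median log2 fold change was 2.65 against tcESCs and 1.97 against tc;Sf1ESCs. Pappa2, the protease gene, had 3 and 3 counts in tcESCs, 1 and 0 in tc;Sf1ESCs, 706 and 1547 in SCLCs, and 79 and 25 in tod-PGCLCs. It rose by 8.55 (SE 0.55) in SCLCs against tcESCs (edgeR, adjusted p = 9.43e-06), or by 7.96 without SCLC replicate 2, and had a pooled ratio of 379 (95% counting interval 174 to 1033), and the pooled ratio to tc;Sf1ESCs was 2172 (389 to 85838). With 1 count in that line, the fitted log2 difference from it was 13.13 without tc;Sf1ESC replicate 1 and 9.90 without tc;Sf1ESC replicate 2. Stc2 and Stc1 encode stanniocalcins, inhibitors of the PAPPA proteases. Stc2 rose by 2.70 (SE 0.17) in SCLCs (edgeR, adjusted p = 9.36e-06) and by 4.05 (SE 0.23) in tod-PGCLCs (edgeR, adjusted p = 2.18e-06), both against tcESCs. The other protease gene, Pappa, had 0 counts in all ESC libraries, 24 and 11 in SCLCs, and 37 and 63 in tod-PGCLCs, at least 17.2-fold higher in tod-PGCLCs than in tcESCs.

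In tod-PGCLCs against tcESCs, 6 of 8 tested genes of that list were called, beside 29.4% of all genes. The call of Stc1 was lost without tcESC replicate 1 (edgeR, adjusted p = 0.0525). Htra1, which encodes a secreted serine protease, was lower in tod-PGCLCs by a log2 difference of -2.41 (SE 0.14; edgeR, adjusted p = 2.70e-06) and higher in SCLCs by 1.36 (SE 0.11; edgeR, adjusted p = 2.37e-05), both against tcESCs. Between SCLCs and tod-PGCLCs it differed by 3.76 (SE 0.15; edgeR, adjusted p = 1.77e-07). Kazald1, which encodes a further relative of the binding proteins, was higher in SCLCs than in tod-PGCLCs by 3.66 (SE 0.37; edgeR, adjusted p = 3.12e-05), or by 4.30 without tod-PGCLC replicate 1. Igfbpl1, a gene with an IGFBP-like domain, rose in tod-PGCLCs and fell in SCLCs against tcESCs, with 61 and 44 counts in tcESCs, 19 and 9 in SCLCs, and 129 and 121 in tod-PGCLCs. The tod-PGCLC call of Igfbpl1 was lost without tcESC replicate 2 (log2 fold change 0.82; edgeR, adjusted p = 0.113).

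Inside the cell, Irs2, an adaptor of both receptors, rose by 1.91 (SE 0.13) in SCLCs (edgeR, adjusted p = 1.00e-05) and by 1.09 (SE 0.12) in tod-PGCLCs (edgeR, adjusted p = 8.79e-05) against tcESCs. The latter was 0.95 without tcESC replicate 2, under the 2-fold limit. Irs1 rose in SCLCs, tod-PGCLCs and tc;Sf1ESCs against tcESCs, from 24 and 22 counts in tcESCs to 77 and 87 in tc;Sf1ESCs, 200 and 98 in SCLCs, and 102 and 69 in tod-PGCLCs. The call in tc;Sf1ESCs (log2 fold change 1.90, SE 0.44; edgeR, adjusted p = 0.0166) was lost when any of the 4 libraries was left out. That in tod-PGCLCs was lost without tcESC replicate 2 (1.61; edgeR, adjusted p = 0.0570), and the SCLC value of 2.78 was 2.11 without SCLC replicate 1. Irs4 had 15 and 25 counts in SCLCs and 123 and 286 in tod-PGCLCs, a log2 difference of -3.27 (SE 0.45; edgeR, adjusted p = 0.000193), which was -2.51 without tod-PGCLC replicate 2. Of 9 substrate and adaptor genes, 3 rose in SCLCs against tcESCs (Irs1, Irs2 and Sh2b2) and 6 were not called, beside 42.7% of all genes called. In tod-PGCLCs 4 rose and 1 fell (Irs1, Irs2, Irs4 and Sh2b2, and Shc1), beside 29.4% of all genes called, and Shc1 was at -0.98 without tod-PGCLC replicate 2.

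Of 7 genes that dampen the receptors, 2 rose in SCLCs against tcESCs, Enpp1 and Socs1, and the other 5 were not called, beside 42.7% of all genes called. Against tc;Sf1ESCs, 3 rose, Enpp1, Socs1 and Grb14 (1.83), and 2 fell, Grb10 (-1.62) and Socs3 (-1.002, or -0.85 without SCLC replicate 2), beside 42.2% of all genes called. Enpp1, whose product inhibits the insulin receptor, had 6 and 4 counts in tcESCs, 4 and 0 in tc;Sf1ESCs, 467 and 569 in SCLCs, and 64 and 57 in tod-PGCLCs, and rose by 6.73 (SE 0.42) in SCLCs against tcESCs (edgeR, adjusted p = 7.71e-06). Grb10, an imprinted adaptor gene whose product restrains both receptors, had 466 and 492 counts in tcESCs, 781 and 834 in tc;Sf1ESCs, 284 and 240 in SCLCs, and 2121 and 2310 in tod-PGCLCs. It was lower in SCLCs than in tod-PGCLCs by a log2 difference of -2.98 (SE 0.14; edgeR, adjusted p = 3.70e-07) and lies, as Igfbp1, Igfbp3 and Igfbp4 do, on chromosome 11. In tod-PGCLCs against tcESCs, 3 of the 7 rose, Enpp1, Grb10 and Grb14, and 1 fell, Socs3, beside 29.4% of all genes called. There Enpp1 was higher by 3.54 (SE 0.46; edgeR, adjusted p = 0.000212) and Socs3 lower, by -2.54 (SE 0.13; edgeR, adjusted p = 1.23e-06).

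Of 19 PI3K, AKT and mTOR genes, 4 were called in SCLCs against tcESCs, where 42.7% of all genes were called. Akt1 and Pik3r1 rose and Pik3r3 and Eif4ebp1 fell, and the same 4 were called against tc;Sf1ESCs. Against tcESCs, Eif4ebp1 was at -0.98 without tcESC replicate 2 and -0.81 without SCLC replicate 2, under the 2-fold limit. Pik3r3, a regulatory subunit of PI3K, was at 69.0 ± 3.4 CPM (SD, n = 2) in tcESCs, 30.2 ± 0.92 CPM in tc;Sf1ESCs, 4.95 ± 1.5 CPM in SCLCs and 10.2 ± 2.0 CPM in tod-PGCLCs, and fell by 3.73 (SE 0.18) in SCLCs against tcESCs (edgeR, adjusted p = 2.39e-06). Akt1 had 924 and 1075 counts in tcESCs and 5288 and 7569 in SCLCs, and it also rose in tod-PGCLCs. Among 7 tested FOXO factors and FOXO-responsive genes, Sesn3 and Pdk4 rose and Foxo6 fell in SCLCs against tcESCs. The call of Pdk4 was lost with either tcESC library left out and without SCLC replicate 1, where in the last case its log2 fold change was 0.24 in place of 1.34. The change of Foxo6 was -2.12 (SE 0.39; edgeR, adjusted p = 0.00184), which was -3.01 without SCLC replicate 1. The 3 IGF2 mRNA-binding protein genes were not called in SCLCs against tcESCs, with log2 fold changes between -0.99 and 0.76, and in tod-PGCLCs against tcESCs Igf2bp2 rose and Igf2bp3 fell, beside 29.4% of all genes called.

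For each of the 10 genes, the gene with the most similar pattern was the one with the smallest root mean square difference of centred log2 CPM over the 8 libraries, among 16706 genes. It was Emilin1 for Insr (0.17), Ubtd2 for Igf1r (0.058), Rfx6 for Igf1 (0.31), Ugt2b34 for Igfbp1 (0.35), Rgs22 for Igfbp2 (0.23), Fbxo47 for Igfbp3 (0.16), Mrc2 for Igfbp4 (0.56), Tmem176b for Igfbp5 (0.30), Traf5 for Igfbp6 (0.17) and Htra1 for Igfbp7 (0.30). The 8 values fall in 4 groups, so a small difference says mainly that group means were alike. Within 0.5 on that scale lay 2000 genes for Igf1r and 543 for Insr, but 1 for Igfbp1, 5 for Igfbp5, 3 for Igfbp7 and 0 for Igfbp4. With a smaller prior count, the nearest gene changed for Igf1, Igfbp2, Igfbp5 and Igfbp6 and was the same for the other 6.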

How the data were processed

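RNA was extracted from tcESCs, tc;Sf1ESCs, sorted SCLCs and sorted tod-PGCLCs and sequenced on an Illumina HiSeq4000, with 2 libraries a group. Per the labels and methods, the authors trimmed reads with Trim Galore, aligned them to GRCm38 with STAR 2.4.0 (the submitters' processing notes) and counted them per gene with HTSeq. The deposited values are raw read counts per gene without normalization, and the annotation and strand setting of the counting are not given in the sources used here. Reads that HTSeq set aside as ambiguous (2.96 to 3.14% of records) or not uniquely aligned (20.5 to 27.5%) were in rows that name no gene and were left out, so genes with near-identical copies can be undercounted.

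Of 46078 gene identifiers, 45143 were named with GENCODE M21. The count tests used edgeR 4.0.16 in R 4.3.3, and DESeq2 1.42.0 served as an alternative. Genes with a mean count above 10 were fitted after TMM scaling, over 6 libraries without the tod-PGCLCs, or over all 8 where tod-PGCLCs were compared. The quasi-likelihood test of edgeR was run, p was adjusted by Benjamini-Hochberg over every tested gene, and a call needed a change above 2-fold and an adjusted p below 0.05. CPM is the count scaled to the same total on genes for every library (counts per 1e6), and CPM per kb divides it by the union of a gene's exons. The SE of a log2 fold change is its size divided by the square root of the F statistic. Against a group whose libraries had 0 counts, a fold was computed as a lower bound against 3 counts per library. The edgeR and DESeq2 steps were tested on simulated counts with known changes. Reads carry no molecular identifiers, so intervals and floors cover counting error only.

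The 10 genes, the pathway and marker lists and the tests were chosen with earlier results of these data known. Besides the 10 genes, the text names Igf2, Igf2r, Irs1 and Irs2, the 3 called pathway genes with the largest change in each direction per comparison (mean of at least 1 CPM, groups not overlapping), the genes behind counts of 5 or fewer, and the most similar gene of each member. Other pathway genes were named after their values were seen. Duplicate libraries differed by more than sampling noise, their chi-square divided by the degrees of freedom being 1.42 to 30.02.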

Additional observations from a re-analysis of the deposited data

How the results depend on the processing

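The counts of pathway genes called were recomputed under other scalings (DESeq2's size factors within edgeR, library totals only), other filters (edgeR's filterByExpr, every gene with a count), other sets of fitted libraries, DESeq2, stricter limits, a replicate block and without each library in turn. Of 68 recomputed counts, 62 were within 1.5 times the reported one. The other 6 were all for tc;Sf1ESCs against tcESCs, where 7 genes were called. There 3 were called with an adjusted p under 0.01, 2 when tested against a 2-fold change, and 3 without any 1 of the 4 libraries, each time among the 7. Over all genes in that comparison, 6.81 to 7.51% were called without each library in turn, 7.98% with an adjusted p under 0.01 and 3.6% against a 2-fold change, in place of 11.7%. For tod-PGCLCs against tcESCs, 18.4% of all genes and 18 pathway genes were called against a 2-fold change, in place of 29.4% and 23. Of the 20, 22, 7, 23 and 19 pathway genes called in SCLCs against tcESCs, SCLCs against tc;Sf1ESCs, tc;Sf1ESCs against tcESCs, tod-PGCLCs against tcESCs and SCLCs against tod-PGCLCs, 15, 18, 3, 18 and 16 were also called with any of the 4 libraries left out. A stricter limit gives fewer calls by construction. Leaving out a library gave 17 to 20, 19 to 23, 3, 20 to 24 and 19 to 23 calls in these comparisons, so in some cases more.

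Of 508 recomputed values of named pathway genes, 494 kept their direction and their side of the limits. Igf2r, which was not called, changed sign without SCLC replicate 2: its log2 fold change ranged from -0.29 to 0.042 against tcESCs and from -0.21 to 0.12 against tc;Sf1ESCs over the libraries left out. Of the 569 recomputed member values, 493 moved by less than the SD between replicates, and no member that differed more than 2-fold changed sign. Without SCLC replicate 1, Igfbp2 was at -0.67 against tcESCs in place of 0.20. With library totals only, the median of all genes shifted to 0.11 for tod-PGCLCs against tcESCs and to -0.15 for SCLCs against tod-PGCLCs, where Igf2r was then called lower (-1.08). It was also called there without SCLC replicate 1 (-1.12) and without tod-PGCLC replicate 2 (-1.05).

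Deviations of libraries with the same replicate number correlated at -0.026 to 0.062 across genes. With 2 libraries a group, this cannot tell whether libraries of the same number were prepared together, and the sample titles give replicate numbers only. With a replicate block, 20, 22, 6, 23 and 18 pathway genes were called in the order of comparisons given above, in place of 20, 22, 7, 23 and 19.

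Each group had 2 libraries, so the spread rests on few degrees of freedom, and a lone library left in a group was assumed to vary like the others. At this depth, a count of 0, as for Igfbp1 in ESCs, allows a level of up to that of 3 counts, and folds against groups with 1 to 6 counts are imprecise.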
